A study of Homo sapiens with 12 samples.

Results

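A set of 10 genes of fatty acid synthesis, elongation and desaturation were followed in L-540, an established human cell line from a Hodgkin lymphoma, on Illumina expression BeadChips. The members are FASN, SCD, ACLY, ACACA, ELOVL5, ELOVL6, FADS1, FADS2, ACSL3 and ME1. They were selected by symbol, with no measured value in the rule, but with earlier results of these data known. Shares of all genes set beside member counts are therefore no independent test of the set. Every probe whose platform symbol is exactly that of a member was taken. This gave 13 probes for 9 of the 10 genes, among 18852 genes with a probe of their own, and no probe carried the symbol ACSL3. Of the 9 genes, 6 had a probe above background and were tested together with all 8092 genes measured, while FADS1, FADS2 and ME1 were below background on all 12 arrays. The 12 RNA samples form 4 groups of 3 arrays, lettered A to C. The cells received 10 µM perifosine, 5 µM sorafenib, or 10 µM perifosine together with 5 µM sorafenib (the combination), each for 24 h, or were controls kept for 24 h without a drug. All groups are one cell line in culture. Nothing in the labels tells if A, B and C were grown apart, so each p-value covers the spread between these samples only, and that spread may be technical.

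Fatty acids are built in the cytosol from citrate that leaves the mitochondrion. ATP citrate lyase (ACLY) cleaves citrate to acetyl-CoA, acetyl-CoA carboxylase (ACACA) turns acetyl-CoA into malonyl-CoA, and fatty acid synthase (FASN) joins these units to palmitate with NADPH that malic enzyme (ME1) helps to supply. Elongases (ELOVL5, ELOVL6) lengthen the chain, desaturases (SCD, FADS1, FADS2) add double bonds, and acyl-CoA synthetases such as ACSL3 activate the product for membrane and storage lipids. Many of these genes are targets of the SREBP transcription factors. Perifosine, a synthetic alkylphospholipid, lowers AKT activity. Sorafenib is a multikinase inhibitor.

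Values are log2 intensities after background correction and quantile normalization, and a difference of 1 is a 2-fold difference. A probe was called detected on an array at a detection p under 0.01. The brightest kept probe stood for each gene, and a gene passed in a comparison when its limma p, adjusted by the Benjamini-Hochberg method over all genes, was under 0.05. Arrays detected between 9291 and 11657 probes. Combination array B stood apart from the others, with the fewest detected probes, the highest median intensity (649, against 404 on the lowest array) and an array weight of 0.291, against 0.664 to 1.69 on the other arrays. Combination results that moved by over 1.5 times without it, and those of FASN and SCD, are therefore also given without it. Of 9 markers of Hodgkin and Reed-Sternberg cells, TNFRSF8 (the gene of CD30), FUT4 (of CD15), GATA3, FSCN1, TRAF1 and MYB were detected on all 12 arrays, while IRF4, CCL17 and CCL22 were not kept. None of the 4 adipocyte markers (ADIPOQ, FABP4, PLIN1, LEP) or the 4 hepatocyte markers (ALB, APOA1, APOB, TTR) was detected on any array, and no marker of B cells, T and NK cells, macrophages or fibroblasts passed in any comparison. BLK of the B cell list and CD2, CD247 and NKG7 of the T and NK cell list were detected on all 12 arrays. Of the Hodgkin and Reed-Sternberg list 1 gene passed, TNFRSF8, which fell with sorafenib and with the combination against control (-0.98 ± 0.188 and -0.81 ± 0.188, limma, adjusted p = 0.0295 and 0.0408), and its part in the results below was not tested. In bulk RNA, fewer cells with a transcript and less transcript per cell cannot be told apart.

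The members that differed were FASN and SCD. Both were higher with perifosine than with sorafenib, and both were lower with the combination than with perifosine alone. These comparisons share the same perifosine arrays, and without perifosine array B or C both genes lost the call in each. Against control, the main limma model, which leaves the letter out, called no member. FASN and SCD values lay above control after perifosine and below it after sorafenib or both drugs. With the letter as a replicate block in limma, FASN and SCD fell with sorafenib (adjusted p = 0.0265 and 0.0435). SCD also fell with the combination in that fit (adjusted p = 0.0275), though combination and control arrays were not paired by letter. ACLY, ACACA, ELOVL5 and ELOVL6 passed in none of the 7 comparisons.

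**Figure D1:**
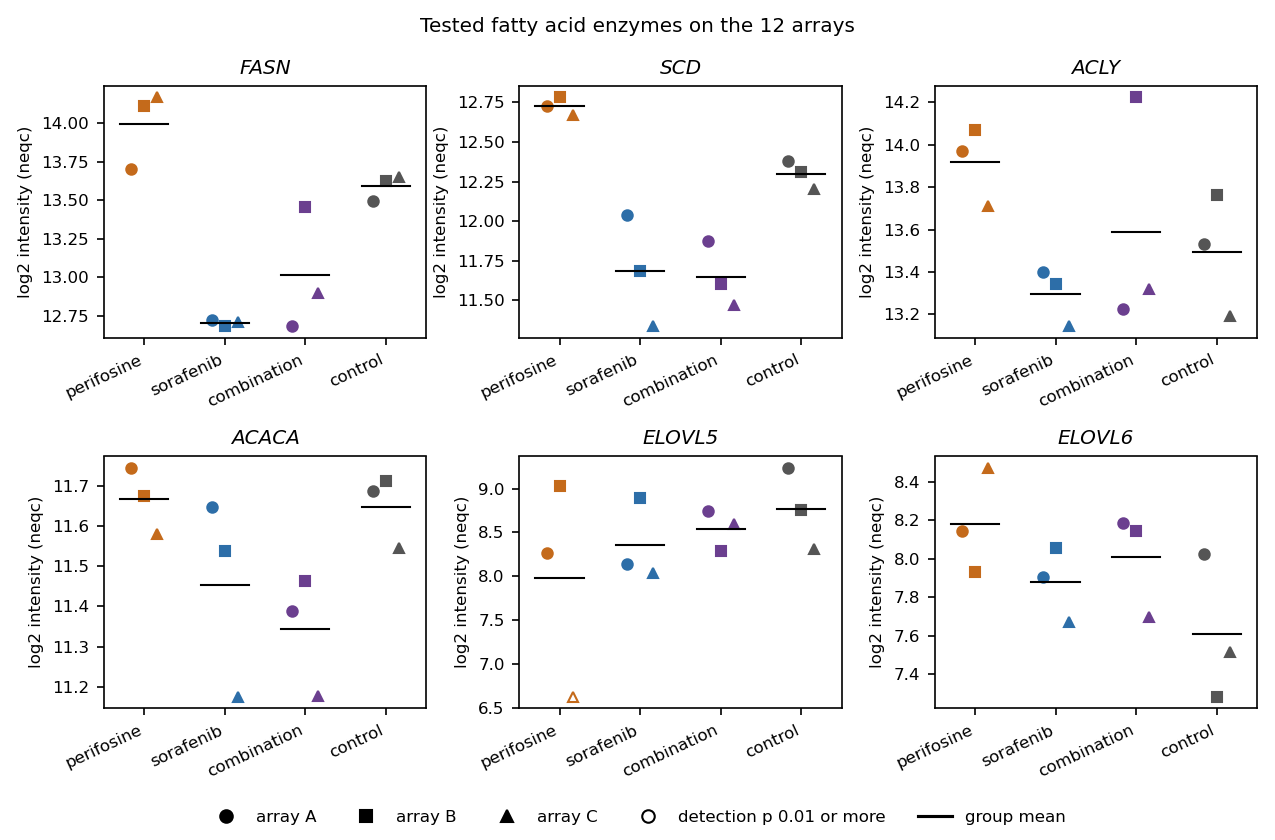
Log2 intensity of the 6 tested enzymes (vertical axes, a scale of its own for each gene) on the 3 arrays of each group, with marker shapes for the letters A to C, open markers where the detection p was 0.01 or more, and a line at each group mean. FASN and SCD are highest on the perifosine arrays, the sorafenib arrays of FASN lie close together at 12.69 to 12.72, and combination array B is the highest combination array for FASN and ACLY.

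FASN (Entrez Gene 2194), which carries out the whole cycle of palmitate synthesis on 1 polypeptide, was detected on every array. Its log2 intensity was 13.70, 14.11 and 14.17 on perifosine arrays A, B and C, 12.72, 12.69 and 12.71 on the sorafenib arrays, and 12.68, 13.46 and 12.90 on the combination arrays, against 13.49, 13.62 and 13.65 on the control arrays. The perifosine arrays all lay above the control arrays, and the sorafenib and combination arrays all lay below them. Perifosine array A and combination array B came closest to the control arrays. Group means were 13.99 ± 0.255 with perifosine, 12.71 ± 0.0177 after sorafenib and 13.01 ± 0.4 with the combination, against 13.59 ± 0.0841 in control cells (SD, n = 3 each).

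SCD (Entrez Gene 6319), the desaturase that makes oleate and palmitoleate, was also detected on every array. It was at 12.73, 12.78 and 12.67 on perifosine arrays A, B and C, at 12.04, 11.69 and 11.34 on the sorafenib arrays and at 11.88, 11.60 and 11.47 on the combination arrays, against 12.38, 12.31 and 12.20 on the control arrays. The perifosine arrays again lay above all control arrays, and all 6 arrays with sorafenib, alone or combined, lay below them. Group means were 12.73 ± 0.0553 with perifosine, 11.69 ± 0.35 after sorafenib and 11.65 ± 0.208 with the combination, against 12.30 ± 0.089 in control cells (SD, n = 3 each). Combination array B lay between the other combination arrays for this gene.

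Perifosine and sorafenib were set against each other directly. FASN was higher with perifosine by 1.29 ± 0.198 log2 units, or 2.44-fold (SE, limma, adjusted p = 0.0114), and SCD by 1.04 ± 0.181, or 2.06-fold (adjusted p = 0.0202). These 2 of the 6 tested members passed, beside 0.976% of all genes. The difference had the same sign within letters A, B and C, from 0.98 to 1.46 for FASN and from 0.69 to 1.33 for SCD. It also did for ACLY (0.57, 0.73 and 0.56) and ACACA (0.10, 0.14 and 0.41), and the share of all genes that did so was not counted. ACLY had a difference of 0.62 ± 0.251 (95% interval 0.07 to 1.17) and did not pass (adjusted p = 0.244). ACACA had a difference of 0.21 ± 0.154, ELOVL6 of 0.30 ± 0.224 and ELOVL5 of -0.38 ± 0.491. In the limma fit over all kept probes, the other kept probes gave 0.62 ± 0.144 for ACLY, 0.57 ± 0.217 for ACACA and -0.30 ± 0.193 for ELOVL6. None of these passed. Without perifosine array C the value of ELOVL5 was 0.29 ± 0.342, and without sorafenib array B -0.12 ± 0.545. The median over the tested members was 0.46, against 0.00 over all genes. The call of FASN was lost without perifosine array B or C or sorafenib array C (adjusted p = 0.0625, 0.0703 and 0.0584), and that of SCD without any one perifosine array or without sorafenib array B or C (adjusted p from 0.0503 to 0.0871).

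Adding sorafenib to perifosine was tested as the combination against perifosine alone. FASN fell by 0.98 on the log2 scale (SE 0.198, 1.97-fold lower, limma, adjusted p = 0.0305), and SCD had a change of -1.08 ± 0.181, or 2.11-fold lower (adjusted p = 0.0145). These 2 of 6 members passed, beside 2.39% of all genes. For FASN, SCD and also ACACA every combination array lay below every perifosine array, and the share of all genes that did so was not counted. Without combination array B the change was -1.20 ± 0.162 for FASN and -1.05 ± 0.203 for SCD (adjusted p = 0.0188 and 0.0415). ACACA had a change of -0.32 ± 0.154 (95% interval -0.66 to 0.01), ACLY of -0.33 ± 0.251, ELOVL6 of -0.17 ± 0.224 and ELOVL5 of 0.57 ± 0.491, and none of these passed. Without combination array B the change of ACLY was -0.64 ± 0.187 (adjusted p = 0.115), and without perifosine array C that of ELOVL5 was -0.10 ± 0.342. With all arrays, the other kept probes gave -0.65 ± 0.144 for ACLY, -0.45 ± 0.217 for ACACA and 0.31 ± 0.193 for ELOVL6, and none passed. The median over the members was -0.32, against 0.00 over all genes. The call of FASN was lost without perifosine array B or C or combination array A or C (adjusted p = 0.12, 0.132, 0.0797 and 0.0746), and that of SCD without perifosine array B or C or combination array C (adjusted p = 0.0711, 0.0615 and 0.0556).

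Adding perifosine to sorafenib was tested as the combination against sorafenib alone. None of the 6 members passed in limma, beside 0% of all genes, and none had an unadjusted p under 0.05, against 164 of the 8092 genes. SCD differed by -0.04, with a 95% interval of -0.43 to 0.36, and FASN by 0.31, with an interval of -0.13 to 0.74. Without combination array B the difference of SCD was -0.01 ± 0.203 and that of FASN 0.09 ± 0.162, with the FASN arrays at 12.68 and 12.90 against a mean of 12.71 with sorafenib. The interaction, the departure of the combination from the added single-drug changes, also passed for none of the 6 members, beside 0% of all genes (unadjusted p under 0.05 for none of the members and 163 genes). It was -0.10 for FASN (95% interval -0.71 to 0.52) and -0.46 for SCD (95% interval -1.02 to 0.10), and 0.97 ± 0.694 for ELOVL5. Without combination array B it was -0.32 ± 0.217 for FASN, -0.44 ± 0.272 for SCD and, for ACLY, -0.44 ± 0.251, against -0.13 ± 0.354 with that array. Without perifosine array C, on which its probe was not detected, the value of ELOVL5 was 0.30 ± 0.459.

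**Figure D2:**
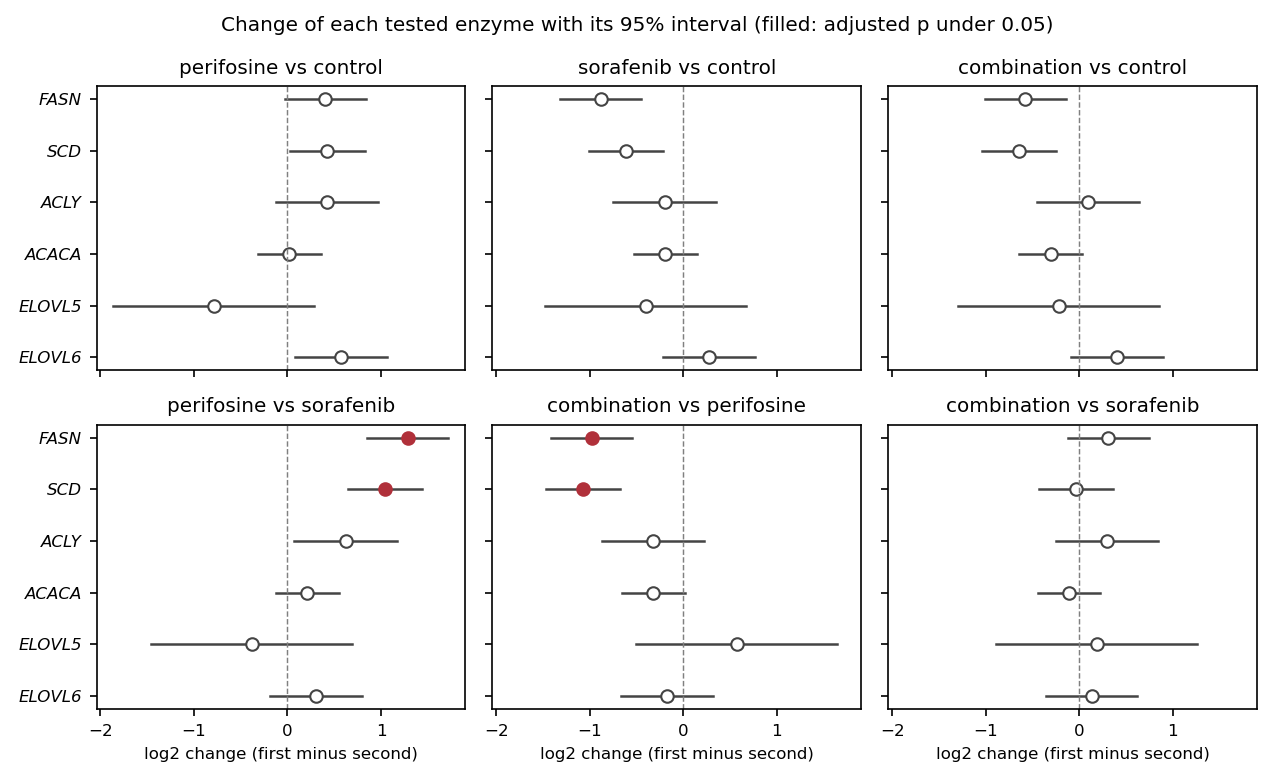
Log2 change of each tested enzyme in the 6 pairwise comparisons (horizontal axis, first group minus second), with bars for the 95% interval of the limma fit and filled points where the adjusted p was under 0.05. The filled points are FASN and SCD for perifosine against sorafenib (1.29 and 1.04) and for the combination against perifosine (-0.98 and -1.08), and the intervals of ELOVL5 are the widest.

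Against control, sorafenib gave the change of largest size among the members in FASN. It was -0.88 ± 0.198 (SE, 95% interval -1.32 to -0.45), or 1.85-fold lower, and just missed the threshold in limma (adjusted p = 0.0519). SCD had a change of -0.61 ± 0.181 (95% interval -1.01 to -0.22, adjusted p = 0.113). None of the 6 members passed, beside 1.47% of all genes. FASN and SCD had an unadjusted p under 0.05, as had 1364 of the 8092 genes tested. Sorafenib and control arrays with the same letter deviated together from their group means. A replicate block for the letter was fitted over all 12 arrays, including the combination arrays, which were not paired by letter. With this block both genes fell in limma (adjusted p = 0.0265 for FASN and 0.0435 for SCD), beside 4.99% of all genes. Both were lower within each letter, by -0.77, -0.94 and -0.94 for FASN and by -0.34, -0.63 and -0.87 for SCD. So were ACLY (-0.13, -0.42 and -0.05) and ACACA (-0.04, -0.17 and -0.37), and the share of all genes lower within each letter was not counted. FASN also passed without combination array B, which is in neither group but shares the estimate of the spread (adjusted p = 0.0161). For FASN and SCD the sorafenib and control arrays did not overlap, as for 24.9% of all genes. ACLY had a change of -0.20 ± 0.251, ACACA of -0.19 ± 0.154, ELOVL5 of -0.40 ± 0.491 and ELOVL6 of 0.27 ± 0.224, and the median of the members was -0.30, against 0.00 over all genes.

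The combination against control gave similar values for SCD and smaller ones for FASN. SCD had a change of -0.65 ± 0.181 (95% interval -1.04 to -0.25, adjusted p = 0.0735) and FASN of -0.58 ± 0.198 (95% interval -1.01 to -0.14, adjusted p = 0.129). None of the 6 members passed in limma, beside 3.41% of all genes. SCD and FASN had an unadjusted p under 0.05, as had 1690 of the 8092 genes tested. Without combination array B the change of FASN was -0.80 ± 0.162 and passed (adjusted p = 0.0395), and that of SCD was -0.63 ± 0.203 (adjusted p = 0.134). Arrays of FASN, SCD and ACACA did not overlap with control, as for 24.3% of all genes. ACACA was at 11.39, 11.46 and 11.18 on the combination arrays, against 11.69, 11.71 and 11.54 on the control arrays, with a change of -0.30 ± 0.154 (adjusted p = 0.289).

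Perifosine against control moved no gene past the threshold in limma, so none of the 6 members passed, beside 0% of all genes. At an unadjusted p under 0.05 there were 198 genes, among them SCD with 0.43 ± 0.181 (95% interval 0.03 to 0.82) and ELOVL6 with 0.57 ± 0.224 (95% interval 0.08 to 1.07). FASN had a change of 0.40 ± 0.198 (95% interval -0.03 to 0.84), ACLY of 0.42 ± 0.251, ACACA of 0.02 ± 0.154 and ELOVL5 of -0.79 ± 0.491. The value of ELOVL5 rests on perifosine array C, where its probe was not detected, and was -0.12 ± 0.342 without it. The arrays of FASN and SCD did not overlap with control, as for 7.46% of all genes. FASN, SCD, ACLY and ELOVL6 were higher with perifosine within each letter, by 0.21 to 0.52, 0.35 to 0.47, 0.31 to 0.52 and 0.12 to 0.96. The share of all genes higher within each letter was not counted. The median over the members was 0.41, against 0.00 over all genes, and 5 of the 6 values lay above 0, against 50.9% of all genes. Of these, the value of ACACA changed sign without control array C or perifosine array A, and the other kept probe of ELOVL6 gave -0.23 ± 0.193. The comparisons with control share the same 3 control arrays.

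The 2 enzymes ahead of FASN in the pathway were each read by 2 kept probes. ACLY (Entrez Gene 47) had values on its brighter probe of 13.97, 14.07 and 13.71 with perifosine, 13.40, 13.34 and 13.14 with sorafenib and 13.23, 14.22 and 13.32 with the combination, against 13.53, 13.77 and 13.19 in control cells. On this probe the perifosine arrays lay above the sorafenib arrays, each drug group overlaps with control, and combination array B held the highest value of all 12 arrays. The dimmer ACLY probe was tighter, with 13.37, 13.46 and 13.36 with perifosine, 12.90, 12.85 and 12.57 with sorafenib and 12.90, 12.75 and 12.60 with the combination, against 12.96, 13.09 and 13.01 in control cells. On it the perifosine arrays lay above all control arrays, and the sorafenib and combination arrays below them. Over all genes, on the probe that stood for each, arrays did not overlap with control for 7.46%, 24.9% and 24.3% in these groups. In the limma fit over all 11904 kept probes the change of the dimmer probe against control was 0.38 ± 0.144 for perifosine, -0.25 ± 0.144 for sorafenib and -0.27 ± 0.144 for the combination. None of these passed, with an adjusted p of 0.45 for sorafenib and 0.337 for the combination. For the combination against perifosine the same fit gave -0.65 ± 0.144 (adjusted p = 0.0516). For the combination against control the brighter probe gave 0.09 ± 0.251, so the probes disagree in sign there, and without combination array B the brighter probe gave -0.22 ± 0.187.

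ACACA (Entrez Gene 31), the rate-limiting carboxylase, varied least among the members on the probes that stood for each gene. On its brighter kept probe it was at 11.74, 11.68 and 11.58 with perifosine and 11.65, 11.54 and 11.18 with sorafenib, beside the combination and control values given above. The range over the 12 arrays was 0.57 log2 units, against 1.48 for FASN. Its other kept probe had a range of 1.09 and changes of 0.17 ± 0.217 with perifosine, -0.40 ± 0.217 after sorafenib and -0.28 ± 0.217 with the combination against control, with overlapping arrays each time, and a 3rd ACACA probe was detected on none of the 12 arrays.

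The elongases were dim and less certain. ELOVL6 (Entrez Gene 79071), which lengthens palmitate to stearate, was at 8.14, 7.93 and 8.47 with perifosine, 7.91, 8.05 and 7.67 with sorafenib and 8.19, 8.14 and 7.70 with the combination, against 8.02, 7.28 and 7.51 in control cells. Each drug group overlaps with control. Its other kept probe went the other way with perifosine, with 7.04, 7.02 and 7.11 on arrays where it was not detected, against 7.41, 7.13 and 7.31 in control cells, and a change of -0.23 ± 0.193. That probe was detected on 6 of the 12 arrays. ELOVL5 (Entrez Gene 60481), an elongase of polyunsaturated fatty acids, was at 8.27, 9.03 and 6.63 with perifosine, 8.14, 8.90 and 8.04 with sorafenib and 8.74, 8.29 and 8.60 with the combination, against 9.23, 8.75 and 8.31 in control cells. The ELOVL5 probe was detected on 11 of the 12 arrays, and perifosine array C, the lowest, is the exception. The residual SD of ELOVL5 was 0.706, against 0.241 for FASN and a median of 0.266 over all genes.

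**Figure D3:**
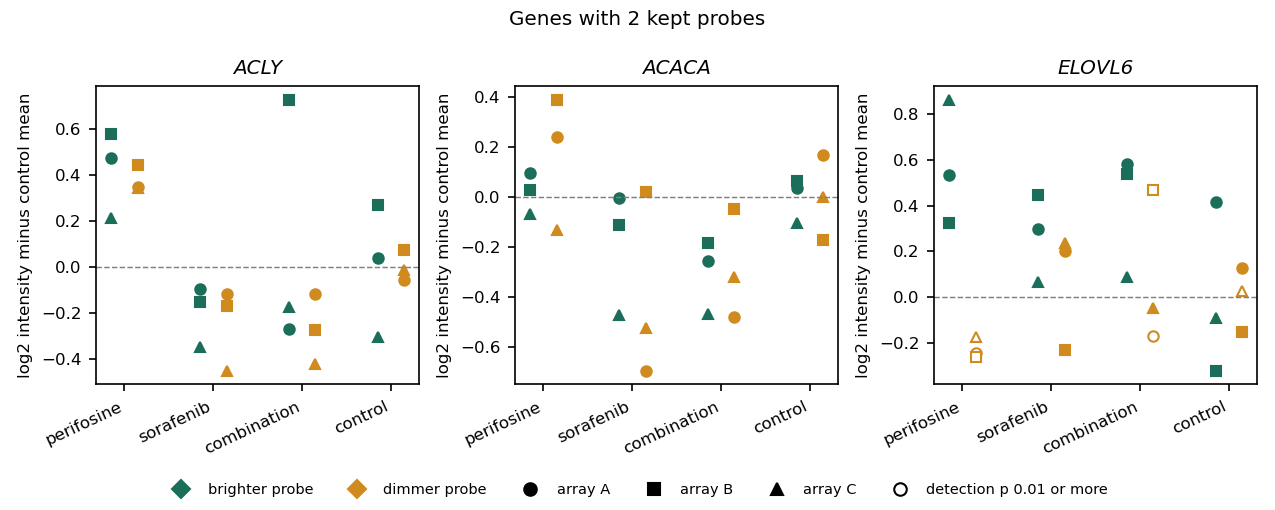
Log2 intensity minus the control mean of the same probe (vertical axes) for the genes with 2 kept probes, with the brighter probe on the left and the dimmer on the right of each group, and open markers where the detection p was 0.01 or more. Combination array B is high for the brighter ACLY probe at 14.22 and within the group for the dimmer one at 12.75, and the ELOVL6 probes lie on opposite sides of control with perifosine (0.57 and -0.23).

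FADS1, FADS2 and ME1 gave no measurable level. FADS1 (Entrez Gene 3992) and FADS2 (Entrez Gene 9415), the front-end desaturases of polyunsaturated fatty acid synthesis, and ME1 (Entrez Gene 4199) had 1 probe each. Detection p ranged from 0.154 to 0.667 for FADS1, from 0.0791 to 0.794 for FADS2 and from 0.123 to 0.669 for ME1. Intensities before correction were 364 to 729 for FADS1, 395 to 620 for FADS2 and 395 to 669 for ME1. These values are not above those of negative-control beads in any group, so no fold is given, and a probe that does not hybridize well cannot be told apart from a low transcript level.

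The tested members were compared in pairs by the root mean square difference of centred log2 values over the 12 arrays. It was smallest for ACLY and ACACA, with 0.30, and next for FASN and SCD, with 0.32. The measure is small for genes that vary little, and 0.30 is above the SD of ACACA itself, so it does not show a shared pattern for ACLY and ACACA. The pair furthest apart was FASN and ELOVL5, with 0.94. FASN had an SD over the 12 arrays of 0.561 and SCD of 0.502, against 0.194 for ACACA. Set against the mean profile of the 6 members, the closest of 7825 other genes over the 12 arrays were CNOT4, LMBRD1, PRKX, DNM1L and PITRM1, with root mean square differences of 0.10 to 0.12, beside an SD of 0.26 of the mean profile itself.

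The promoters of SCD and ACLY are shown because SCD is one of the 2 members past the threshold and ACLY is the first enzyme of the pathway. FASN is not in the promoter table. The sequences are the 250 bases before the annotated start, 5′ to 3′ on the gene's strand, from RefSeq on GRCh38.p14. SCD is at chr10:100346983-100347232 on the plus strand and ACLY, for the more upstream of its 2 annotated starts, at chr17:41919023-41919272 on the minus strand. Capitals mark the pentamer CCAAT bound by NF-Y and the hexamer GGGCGG bound by SP1, or their reverse complements.
SCD: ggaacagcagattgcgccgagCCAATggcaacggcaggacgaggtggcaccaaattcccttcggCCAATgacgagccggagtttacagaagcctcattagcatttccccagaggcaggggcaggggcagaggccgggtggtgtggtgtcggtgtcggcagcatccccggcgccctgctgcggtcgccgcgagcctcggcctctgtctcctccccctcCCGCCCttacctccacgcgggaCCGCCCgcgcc
ACLY: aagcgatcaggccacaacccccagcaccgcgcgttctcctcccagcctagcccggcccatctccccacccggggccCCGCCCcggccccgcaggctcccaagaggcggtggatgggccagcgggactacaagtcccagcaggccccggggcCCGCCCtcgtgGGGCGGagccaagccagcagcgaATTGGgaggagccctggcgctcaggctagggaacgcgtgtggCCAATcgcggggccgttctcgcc
In the SCD stretch the CCAAT letters lie 229 and 186 bases upstream of the start on the gene's strand, and GGGCGG in reverse 33 and 11 bases upstream. In the ACLY stretch CCAAT lies 23 bases upstream and its reverse complement 65 bases upstream, with GGGCGG or its reverse 174, 99 and 88 bases upstream.

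Over the windows from 250 bases before to 50 bases after each annotated start, 9 of the 10 members were in the table, with 13 windows. On either strand CCAAT was found for 6 of these 9 genes (ACACA, ACLY, ACSL3, ELOVL5, FADS2 and SCD), against 39.7% of all 27305 genes in the table. GGGCGG was found for 8 of 9 (all but ELOVL5), against 48.3% of all genes. The core TCACNCCAC of the sterol element, to which SREBP proteins bind, was found for none of the 9, against 1.39% of all genes. No match says only that these letters are not in these windows. The searched motifs do not overlap each other in the printed stretches.

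**Figure D4:**
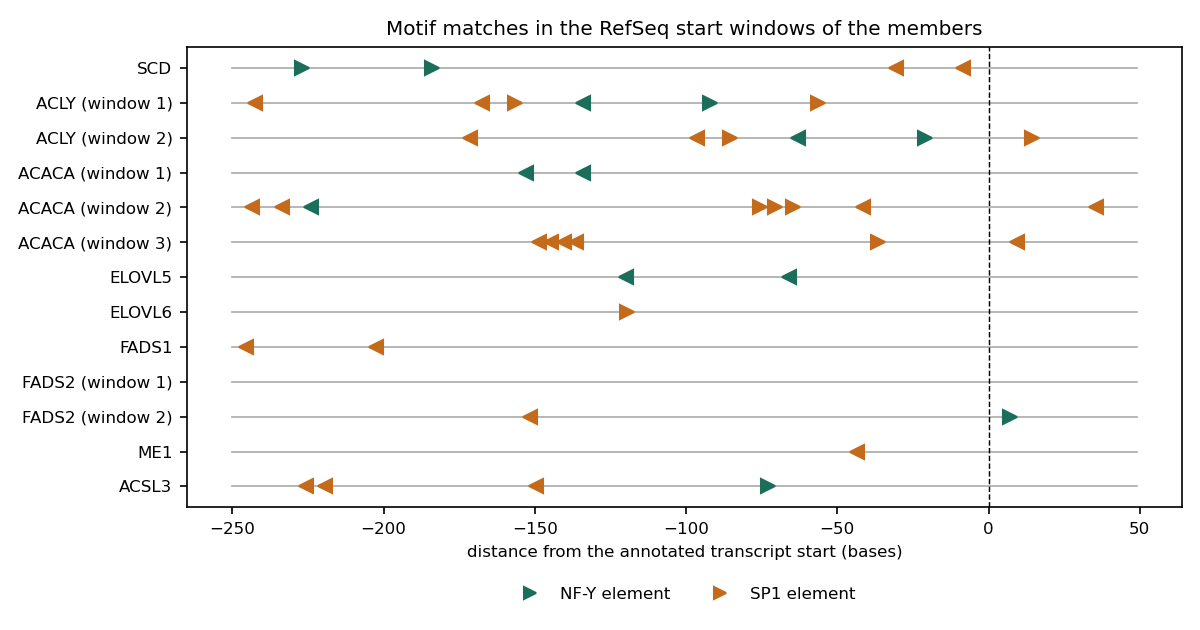
Matches of the NF-Y and SP1 motifs (triangles, pointing right on the gene's strand and left on the opposite strand) in the 13 start windows of 9 members, by distance from the annotated transcript start in bases. SCD has 4 matches in its single window, 1 of the FADS2 windows has none, and no window has a match to the sterol element core.

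Genes around the pathway were counted in lists, with 83 genes tested in 6 lists. Of the list of factors that control lipid synthesis 15 of 23 were tested. Against control 0 rose and 1 fell with sorafenib, beside 1.47% of all genes, 1 rose and 1 fell with the combination, beside 3.41%, and none passed with perifosine, beside 0%. With the letter as a replicate block 2 changed with sorafenib, beside 4.99% of all genes, INSIG1 and its relative INSIG2, which was chosen after its values were seen (-1.01 ± 0.258, adjusted p = 0.0753, and 0.0174 with the block). INSIG1, whose product retains the SREBP complex in the endoplasmic reticulum and which is itself an SREBP target, had 11.83, 11.56 and 11.33 with sorafenib and 12.09, 11.81 and 11.59 with the combination, against 12.86, 12.51 and 13.02 in control cells. All 6 arrays lay below control, with changes of -1.22 ± 0.214 for sorafenib and -0.97 ± 0.214 for the combination (SE, limma, adjusted p = 0.0204 and 0.0331). INSIG1 was also 1.71 ± 0.214 higher with perifosine than with sorafenib (adjusted p = 0.00553) and fell by 1.45 on the log2 scale with the combination against perifosine (adjusted p = 0.00955). Against control the calls of INSIG1 are fragile, since that for sorafenib was lost without control array A or C or sorafenib array B or C (adjusted p from 0.059 to 0.0973), and that for the combination without any one control array or without combination array B or C (adjusted p from 0.0545 to 0.127).

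PRKAB1, which encodes a regulatory subunit of AMPK, the kinase that inhibits acetyl-CoA carboxylase, was at 9.87, 9.96 and 9.62 with the combination, against 8.95, 9.08 and 8.81 in control cells. It rose by 0.87 ± 0.174 with the combination (adjusted p = 0.0246), and the call was lost without any one control array or without combination array A or B (adjusted p from 0.0557 to 0.103). SREBF1, the gene of SREBP-1 and chosen after its values were seen, had changes of -0.45 ± 0.249 with perifosine, -0.58 ± 0.249 after sorafenib and -0.90 ± 0.249 with the combination against control and did not pass (adjusted p = 1, 0.266 and 0.0708). With the combination it passed when only genes detected on all 12 arrays were tested (adjusted p = 0.0397). Against control the median change of this list was 0.05 after perifosine, 0.04 after sorafenib and 0.07 after both, beside 0.00, 0.00 and 0.01 over all genes.

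The other lists of substrate supply and chain enzymes had no member past the threshold in any of the 7 comparisons. Of 20 other chain enzymes 12 were tested. Over the 6 pairwise comparisons the values of largest size were those of SCD5, the second human desaturase of the SCD type, at -1.08 ± 0.297 with the combination and -0.86 ± 0.297 with sorafenib against control, and HACD4, a dehydratase of chain elongation, at 0.93 ± 0.374 for the combination against sorafenib. Both genes were near background on some arrays, with SCD5 at 6.22 on combination array B and HACD4 at 6.29 on perifosine array B. Of 20 acyl-CoA synthetases and thioesterases 13 were tested, led by SLC27A5, an acyl-CoA synthetase, at -1.23 ± 0.299 and ACSL4, which prefers arachidonate, at -1.04 ± 0.274 for the combination against perifosine (adjusted p = 0.0557 and 0.0704). Without combination array B the value of SLC27A5 was -0.79 ± 0.163 and passed (adjusted p = 0.0485). With the mean of its kept probes ACSL4 gave -0.51 ± 0.171 for the same comparison and did not pass in limma (adjusted p = 0.134). Of 16 genes of citrate and NADPH supply 13 were tested. SLC25A1, the mitochondrial citrate carrier, was at 0.72 ± 0.162 for perifosine against sorafenib (adjusted p = 0.0585). It passed with the letter as a replicate block (adjusted p = 0.021) and without combination array B (adjusted p = 0.0418). MTHFD1, an enzyme of folate metabolism, was at -0.68 ± 0.184 for sorafenib against control (adjusted p = 0.0901, and 0.0435 with the block). The list of citrate and NADPH supply had a median of -0.19 with sorafenib against control, beside 0.00 over all genes.

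**Figure D5:**
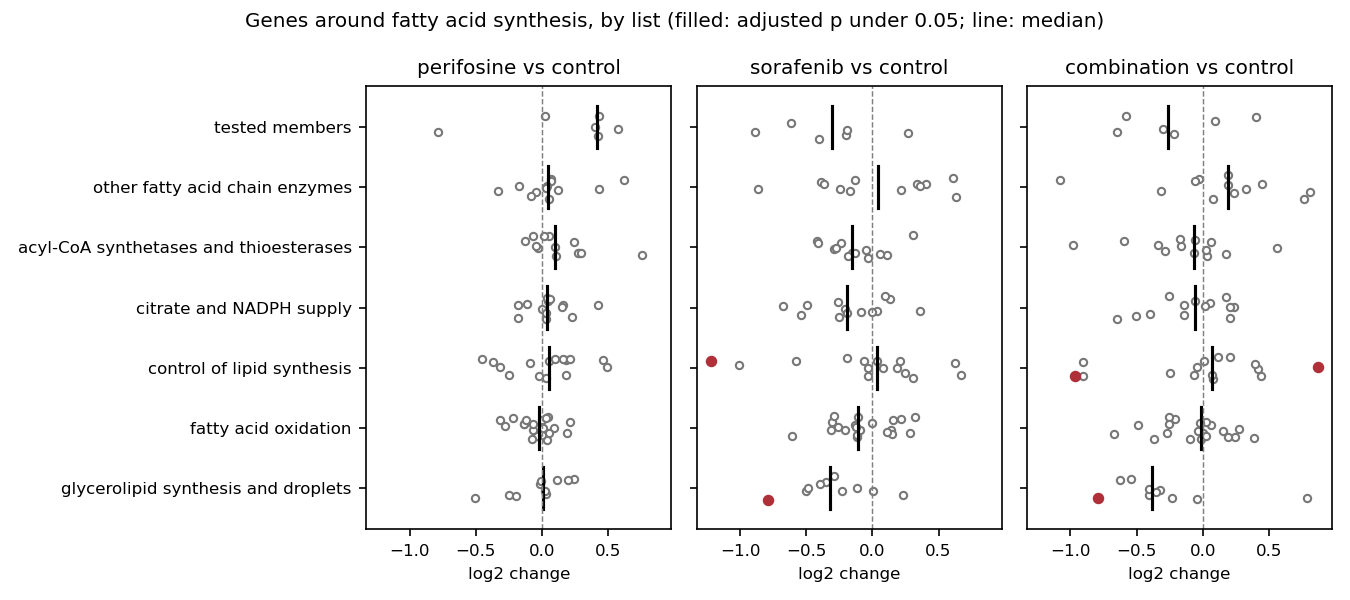
Log2 change against control (horizontal axis) of the 6 tested members and of the genes in 6 surrounding lists, with a line at each median and filled points where the adjusted p was under 0.05. The filled points are INSIG1 and PNPLA2 with sorafenib (-1.22 and -0.79) and INSIG1, PRKAB1 and PNPLA2 with the combination (-0.97, 0.87 and -0.79), and none with perifosine.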

How the data were processed

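The authors deposited, per the file headers, linear bead intensities before normalization, each paired with a detection p-value. They also deposited normalized intensities, by a method that the sources used here do not state. The submitters' processing notes name BeadStudio. Per the labels' protocols, the hybridized material was biotin-labelled cRNA. From the deposited intensities, log2 values were made in R 4.3.3 with the neqc function (limma 3.58.1), which took its background moments from the detection p-values, added an offset of 16 and quantile-normalized the arrays. A probe was kept when detected (p under 0.01) on 3 or more of the 12 arrays, which left 11904 of 48803, and 10117 of these had 1 gene symbol. Of all probes 28098 had 1 symbol, 13 several and 20692 none. The brightest kept probe stood for each of 8092 genes.

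One limma model with a mean per group served 7 comparisons, with Benjamini-Hochberg adjustment over all genes, and was tested on simulated data. Precision is limited by having 3 arrays a group. No 2 arrays correlated above 0.987, so none was counted as a copy. That main model left the letter out, also for groups paired by letter. The replicate block was an alternative fit with the letter over all 12 arrays, the combination arrays included. Arrays of the same letter were called paired where their residuals correlated above 0.1 for every letter. This held between perifosine and control (lowest 0.265), sorafenib and control (0.186) and perifosine and sorafenib (0.234), and not for the combination (lowest -0.161, -0.0985 and -0.147 against perifosine, sorafenib and control). The members and lists were chosen with earlier results of these data known. All members were named, with up to 4 genes past the threshold of each surrounding list, or 2 with the largest change where none passed. The alternatives were the authors' table, median scaling, other filters and offset, the mean of probes, array weights, the compared groups alone, the replicate block and leaving out arrays.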

Additional observations from a re-analysis of the deposited data

How the results depend on the processing

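Of 671 values of member changes under alternatives, 616 kept their direction and side of the threshold, 21 lost the call, 15 gained one and 19 changed sign without a call in either fit. For perifosine against control, the combination against sorafenib and the interaction the count of members past the threshold was 0 under every alternative run. For sorafenib against control it was 0 as reported, 2 with the authors' normalized table and with the replicate block (FASN and SCD, both lower), and 1 (FASN) with median scaling, detection on all 12 arrays, the offset of 50, the mean of probes and array weights. With 1 array left out it was 0 to 1, and it was 1 without combination array B, a setting added once the data had been seen. For the combination against control it was 0, and 1 with the authors' table, detection on all arrays and the replicate block (SCD) and with array weights (FASN), and 0 to 1 with 1 array left out. For perifosine against sorafenib and for the combination against perifosine it was 2, and 1 without a detection filter, 0 with only the compared groups in the fit and 0 to 2 with 1 array left out. The replicate block changed no other call of a member. No scaling moved the median of all genes by over 0.0424 log2 units.

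Counts over all genes moved more. For sorafenib against control 119 genes passed, and 404 with the replicate block, 386 with array weights, 292 with the authors' table, 234 with detection on all arrays, 260 without combination array B, 35 without a filter, 14 with the compared groups alone and 19 to 72 with 1 of their arrays left out. For the combination against control 276 passed, and 650, 365, 544 and 428 in the first 4 of these settings, 78 without a filter, 16 with the compared groups alone and 40 to 201 with 1 array left out. For the combination against perifosine 193 passed, and 501, 367, 409 and 323, then 53, 0 and 28 to 166, and median scaling gave 56.1% higher calls, against 66.3%. For perifosine against sorafenib 79 passed, and 368, 413, 215 and 163, 214 without combination array B, then 33, 1 and 19 to 79. For perifosine against control array weights gave 2. The calls of INSIG1, PNPLA2 and PRKAB1 against control were also lost without a filter (adjusted p from 0.0501 to 0.0976) and with the compared groups alone (0.0592 to 0.111), and those of INSIG1 with the mean of its probes (0.0514 and 0.098). With the authors' table some values were smaller by over 1.5 times. Of the called changes this held for PNPLA2 (-0.38 and -0.39) and PRKAB1 (0.52), which kept their calls. Others were SCD5, SREBF1 and HADHB (-0.30, -0.47 and -0.23 for the combination against control) and ELOVL5 and ELOVL6 (-0.28 and 0.20 for perifosine against control). HACD4 (0.27 for the combination against sorafenib) and MTHFD1 (-0.40 for sorafenib against control) were smaller too. So were SLC27A5 and ACSL4 (-0.74 and -0.68 for the combination against perifosine), which passed in that table. The replicate block for the combination, whose arrays are not paired, gave 4 calls in the list of control of lipid synthesis, with INSIG2 (0.0167) and SREBF1 (0.0422) beside INSIG1 and PRKAB1. Signal near background limits ELOVL5, ELOVL6, SCD5, HACD4 and CPT1B.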

Other observations

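Storage and breakdown of fatty acids were counted in 2 more lists. PNPLA2, the lipase that starts the hydrolysis of triglycerides, was at 8.63, 8.44 and 8.10 with sorafenib and 8.37, 8.35 and 8.45 with the combination, against 9.16, 9.19 and 9.18 in control cells. It fell by 0.79 on the log2 scale in both comparisons (SE 0.152, limma, adjusted p = 0.0296 and 0.0218), and all 6 arrays lay below control. In the authors' normalized table the changes were -0.38 ± 0.0907 and -0.39 ± 0.0907 and passed (adjusted p = 0.033 and 0.0224). The call for sorafenib was lost without any one control array or without sorafenib array B or C (adjusted p from 0.0695 to 0.112), and that for the combination without any one control array or without combination array C (adjusted p from 0.0519 to 0.0808). PNPLA2 was the only one of 10 tested genes of glycerolipid synthesis and lipid droplets past the threshold, and the median of that list was -0.32 with sorafenib and -0.38 with the combination against control, beside 0.00 and 0.01 over all genes.

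Of 24 genes of fatty acid oxidation 20 were tested and none passed in limma in any of the 7 comparisons. The values of largest size were those of CPT1B, a carnitine palmitoyltransferase gene, at 0.79 ± 0.479 for perifosine against sorafenib and HADHB, of the mitochondrial trifunctional protein, at -0.67 ± 0.441 for the combination against control. The value of HADHB was -0.13 ± 0.361 without combination array A, -1.07 ± 0.438 without combination array B and -0.40 ± 0.482 without control array A. That of CPT1B was 1.24 ± 0.47 without perifosine array C and 0.52 ± 0.529 without perifosine array A. CPT1B was near background on some arrays, with 6.26 on control array C. The median of the list was -0.11 with sorafenib and -0.02 with the combination and with perifosine against control.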
